A study of Mus musculus with 4 samples.

Results

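RNA bound by wild-type Lin28b was compared with the RNA of the same cells before immunoprecipitation. The members are the 11273 genes, of 14755 listed for this pair of libraries and 15704 listed in either table of the series, whose level reached 1 FPKM (a level scaled to transcript length and library depth) in the IP or in the input. Each gene was described by its log2 ratio, IP over input, with 0.01 added to both levels. Coordinates are those of the mouse build mm10 (GRCm38). The gene just inside the level limit was 1700122E12Rik, at 1.00 in the input and 0 in the IP, and the gene just outside was C130046K22Rik, at 0.999 and 0.855.

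The cells were a mouse pancreatic line of cancer-associated fibroblasts (CAFs), the stromal cells of pancreatic tumours, overexpressing Lin28b with a Flag tag. RNA was pulled down with an anti-Flag antibody after cell lysis, with no crosslinking named in the labels, and libraries came from a strand-specific mRNA kit. The other pair of libraries came from the same line overexpressing an RNA-binding deficient Lin28b mutant, and its values are set beside the wild type here only as levels from a separately normalised table. Each of the 4 libraries is the only one of its group. No difference below has a replicate check, no test was run, and "higher" or "lower" states what these libraries show.

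The marker genes of the input did not match the label alone. Of 14 fibroblast markers, 4 reached a level of 1, with Vim at 607, Fn1 at 118, Sparc at 93.8 and Pdgfra at 1.33, while Col1a1 stood at 0.722 and Acta2 at 0.227. All 5 listed epithelial markers, of 7 sought, reached that level, and their summed input level was 2014 against 820 for the fibroblast list. Krt19 stood at 665 and Cdh1 at 219. The leukocyte and smooth muscle lists had 1 listed gene each, below a level of 1, and the acinar and endothelial lists had no gene to analyse here. The libraries are therefore called by their labels, and what part cell identity has in the ratios was not tested.

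Lin28b is an RNA-binding protein with a cold shock domain and a pair of CCHC zinc knuckles. It is known for binding the loop region of let-7 precursors, where the zinc knuckles contact a GGAG stretch, and for blocking the maturation of let-7 microRNAs. It also binds many mRNAs and can alter their translation. Let-7 microRNAs in turn repress growth-related mRNAs, Lin28b and Hmga2 among them.

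A pair of transcripts that carry let-7 hairpins had high ratios, and the other let-7 hosts kept did not reach 2-fold. The lincRNA 6720427I07Rik, whose span at chr13:48532905-48546500 on the minus strand holds let-7a-1, let-7f-1 and let-7d, had an input level of 0.437 and reached 6.01 in the IP. That is 13.5-fold, or a log2 ratio of 3.75, and ranked 5 among the 8743 genes at a level of 5 or above. In the mutant table its level was 0.598 in the input and 0.176 in the IP. That is a log2 ratio of −1.71, where the 145 lincRNAs kept had a median of −1.41. The transcribed processed pseudogene D630033A02Rik, at chr10:122985074-122986555 on the minus strand, holds let-7i and went from an input level of 0.204 to 2.84 after the pull-down (13.3-fold, log2 ratio 3.73). In the mutant table it was listed at 0.339 in the input and at 0 in the IP. The 34 transcribed processed pseudogenes kept had a median of −2.04 in that table. The input levels of both let-7 hosts are low. With 1 added to both levels the folds were 4.88 and 3.19, and over its whole span the input level of D630033A02Rik amounts to 5.63 reads of 150 bases against 86.9 in the IP.

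Both transcripts held 1 wild-type peak beside or over their hairpins and no mutant peak. The peak in 6720427I07Rik, chr13:48535497-48538161, was 2665 bases wide with an authors' fold of 9.16. It covered the let-7d and let-7f-1 hairpins and lay 18 bases from let-7a-1, and the nearest mutant peak on that strand was 340999 bases from let-7a-1. The peak in D630033A02Rik, chr10:122984995-122985548, was 554 bases wide with a fold of 9.21 and lay 92 bases from let-7i, and the nearest mutant peak was 6692 bases from the hairpin. The hairpins are printed because these 4 are the let-7 hairpins under or next to a wild-type peak. The capitals mark GGAG, which starts at base 56, 56, 62 and 54 of the hairpin in the order shown (sequences and coordinates from RefSeq, GRCm38.p6).

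let-7a-1 (chr13:48538179-48538272, minus strand): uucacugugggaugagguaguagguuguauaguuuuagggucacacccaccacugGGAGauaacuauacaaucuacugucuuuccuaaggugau
let-7f-1 (chr13:48537829-48537917, minus strand): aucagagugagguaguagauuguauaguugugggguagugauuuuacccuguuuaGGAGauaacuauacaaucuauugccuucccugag
let-7d (chr13:48536012-48536114, minus strand): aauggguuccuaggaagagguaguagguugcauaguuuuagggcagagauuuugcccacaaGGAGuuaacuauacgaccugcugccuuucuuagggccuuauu
let-7i (chr10:122985640-122985724, minus strand): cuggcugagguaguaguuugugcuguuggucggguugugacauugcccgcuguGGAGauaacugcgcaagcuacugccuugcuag

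Their mature 5p products share 1 seed, bases 2 to 8, shown in capitals, and differ outside it.

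let-7a-5p: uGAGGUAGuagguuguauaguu
let-7f-5p: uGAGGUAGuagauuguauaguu
let-7d-5p: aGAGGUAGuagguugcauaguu
let-7i-5p: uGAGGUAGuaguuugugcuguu

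GGAG, searched on the transcribed strand of each hairpin, is a short motif. It was found in 447 of 1005 mouse hairpins (44.5%) and in 11 of 14 let-7 family hairpins, let-7b, let-7c-2 and mir-98 being the exceptions. Among the other let-7 loci the hosts did not share the ratio. Lncppara, which spans let-7b and let-7c-2, stood at 2.37 in the input and 1.89 in the IP (log2 ratio −0.32). Mir100hg, host of let-7a-2, stood at 3.51 and 4.88 (0.47), with its nearest peak 54928 bases from the hairpin. Wdr82, a protein-coding gene over let-7g, had −0.04, Spaca6 over let-7e had −0.78, and the ubiquitin ligase gene Huwe1 over let-7f-2 and mir-98 had 0.54, with a peak 3556 bases from let-7f-2. That peak overlapped a mutant peak. The nearest mutant peaks lay 1565 bases from let-7f-2 and 672 bases from mir-98, and Huwe1 had 1.84 in the mutant table. Mir99ahg, host of let-7c-1, stood below a level of 1 in both libraries. The hosts that were not high thus included a hairpin pair without GGAG and others with it.

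Of 489 hairpins inside a listed gene on the same strand, the 403 hosts kept had a median log2 ratio of −0.38, with 14 (3.47%) at least 2-fold higher and 76 (18.9%) at least 2-fold lower, against 6.48% and 19.6% of all genes kept. Among 16 noncoding hosts kept, 6 (37.5%) were at least 2-fold lower and 2 at least 2-fold higher, the latter being 6720427I07Rik and D630033A02Rik. The next were Mir22hg at 0.92 and the X inactivation locus transcript Ftx at 0.59. The lowest were Gm4149 at −2.50 and the snoRNA host Snhg20 at −2.28. In all, 13 hairpins in the table lay under a wild-type peak, among them Mir1902 in the kinase gene Hipk3, Mir5101 in the nuclear envelope gene Syne2, Mir3064 in the helicase gene Ddx5 and Mir1892 in Sptssa. Of those 13, 5 also lay under a mutant peak.

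Over all genes kept, the IP level was 2-fold or more above the input in 730 (6.48%) and 2-fold or more below it in 2211 (19.6%), and the median log2 ratio was −0.26, with the middle 50% of genes between −0.84 and 0.31. Depth was similar in both libraries. Read totals are not given, but in short processed pseudogenes the product of level and length fell on even steps of 1 aligned base, whole within 0.1 of a step for 97.2% of 252 IP values and 98.1% of 156 input values. The steps correspond to 3.10 gigabases of aligned reads in the IP and 2.79 gigabases in the input, so that a level of 1 stands for 20.6 and 18.6 reads of 150 bases per kilobase. The mutant IP and input had 3.25 and 2.86 gigabases. Ratios of genes near a level of 1 rest on few reads where the transcript is short, and reads of 1 library are not independent molecules. The telomerase RNA Terc shows the lower limit in the IP, since its level of 0.0911 over 397 bases is 0.747 of a read. Its input level of 21.0 amounts to 155 reads.

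**Figure D1:**
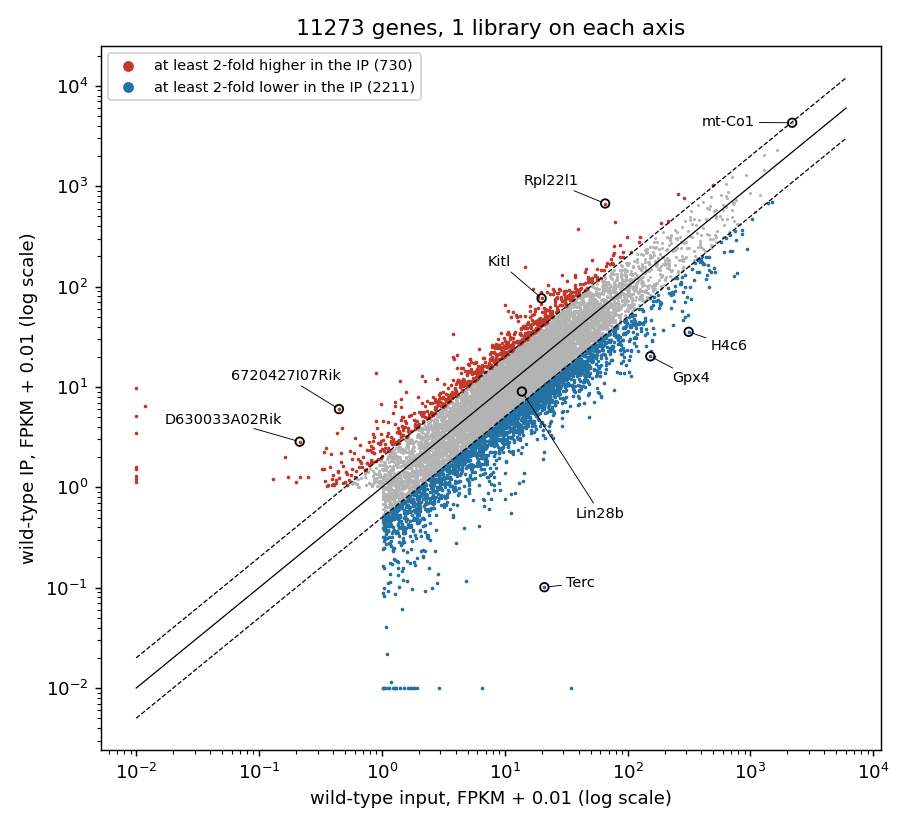
Each point is 1 of 11273 genes, with its wild-type input level on the horizontal axis and its wild-type IP level on the vertical axis (FPKM plus 0.01, log scales, 1 library each). The solid line marks equal levels and the dashed lines 2-fold. The let-7 hosts 6720427I07Rik and D630033A02Rik lie far above the line at low input, while Gpx4, H4c6 and Terc lie far below it.

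Among the 6524 genes with a symbol, predicted genes and pseudogenes left out, at a level of 10 or above, the ratio fell off slowly after the first 10. It was 2.29 (4.88-fold) at rank 11 and 1.85 (3.60-fold) at rank 30. The genes at ranks 11 to 30 came from many processes. The membrane protein gene Smim19 stood at 3.85 in the input and 18.8 in the IP, Gmfb, a regulator of ARP2/3 branches, at 11.7 and 55.6, and Hpf1, a cofactor of PARP enzymes in DNA repair, at 22.6 and 105 (4.63-fold). The transcription factor gene Nfib stood at 29.2 in the input and 130 in the IP (4.44-fold). Mfsd1, a lysosomal transporter, had 4.42-fold, the Mediator kinase cyclin gene Ccnc 4.33-fold, Rassf7 4.31-fold and the nucleoside kinase gene Dck 4.18-fold.

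Further down these ranks, Sypl stood at 18.6 in the input and 77.1 in the IP, and Ppp1cb, a catalytic subunit of protein phosphatase 1, at 21.9 and 88.6. The ER thioredoxin gene Tmx1 had 3.93-fold, the F-box gene Fbxo30 3.92-fold, the cargo receptor gene Tmed5 3.87-fold and the deubiquitinase gene Otud4 3.84-fold. Kitl, which encodes the ligand of the Kit receptor, stood at 20.0 and 76.5 (3.83-fold). The last of the 30 were Scrn2, the integrin activator Fermt2, the importin gene Kpna4, the HUSH silencing complex gene Tasor and Cav2, a caveolin gene, at 31.9 and 115. All 30 held at least 1 wild-type peak, whereas 29.8% of the genes kept did. The peaks come from the same IP library, so this is no separate support. Of the 30, 16 had a ratio above 0 in the mutant table and 5 reached 2-fold, as 5.25% of the genes kept did there, Gmfb (14.5 in the input, 41.2 in the IP) and Tasor (6.33 and 18.6) among them.

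The 20 lowest genes at that level were mostly short. Replication-dependent histone genes made up 9 of them, such as H4c6, at 314 in the input and 35.4 in the IP (8.87-fold lower). The others included the antioxidant selenoprotein genes Gpx4, at 153 and 20.2 (7.59-fold lower), and Selenom, at 60.9 and 7.96. The copper chaperone gene Atox1 stood at 58.1 and 8.73, the ATP synthase gene Atp5g1 at 43.8 and 6.87, and the mitochondrial import gene Timm10b at 20.7 and 2.24. Brms1, a corepressor subunit, stood at 14.1 and 1.14, and Pagr1a was 13.6-fold lower. None of the 20 held a wild-type peak, and 19 of them were also at least 2-fold lower in the mutant table, where 34.5% of the genes kept and named were that low and the shortest genes had a median of −1.86.

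Gene span, the distance from a gene's first to last base with introns, ran with the ratio. When 10256 protein-coding genes were cut into 10 equal groups by span (deciles), the shortest group, whose longest span was 4.84 kb, had a median of −0.99. There 510 of 1026 genes (49.7%) were at least 2-fold lower against 29 (2.83%) at least 2-fold higher. The medians of the next deciles were −0.71, −0.52, −0.40, −0.22, −0.13, 0.04, 0.06, 0.13 and 0.05. In the longest decile, with spans above 111 kb, 33 of 1026 genes were lower and 68 higher. The share at least 2-fold higher was largest in the ninth decile, at 10.2%. Within each tertile of input level the shortest decile was below the longest, with medians of −0.84 and 0.08 in the low tertile, −1.08 and 0.06 in the middle tertile and −1.10 and 0.03 in the high tertile. Across deciles of input level alone the medians moved less, from −0.12 in the lowest decile to −0.46 in the highest. In the mutant table the medians of the same deciles of span ran from −1.86 to 0.26. Exon length was not used here, so span and transcript length cannot be told apart.

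Each span decile had genes far from its median (levels of 10 or above). In the shortest, Rpl22l1, a ribosomal protein paralogue, was 10.2-fold higher. In the second decile Cav2 was 3.60-fold higher, and in the fourth decile Smim19 was 4.88-fold higher while Atox1 was 6.65-fold lower. In the sixth decile Map2k2, a kinase of the MAP kinase cascade, stood at 42.1 in the input and 9.59 in the IP. In the eighth decile Ppp1cb was highest and Tango2, at 10.4 and 2.67, lowest. In the ninth A630089N07Rik was highest, at 6.02-fold, and the acyltransferase gene Agpat4, at 31.3 and 7.86, lowest, and in the longest Hmga2 was highest and Acbd6, at 10.8 and 2.81, lowest.

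**Figure D2:**
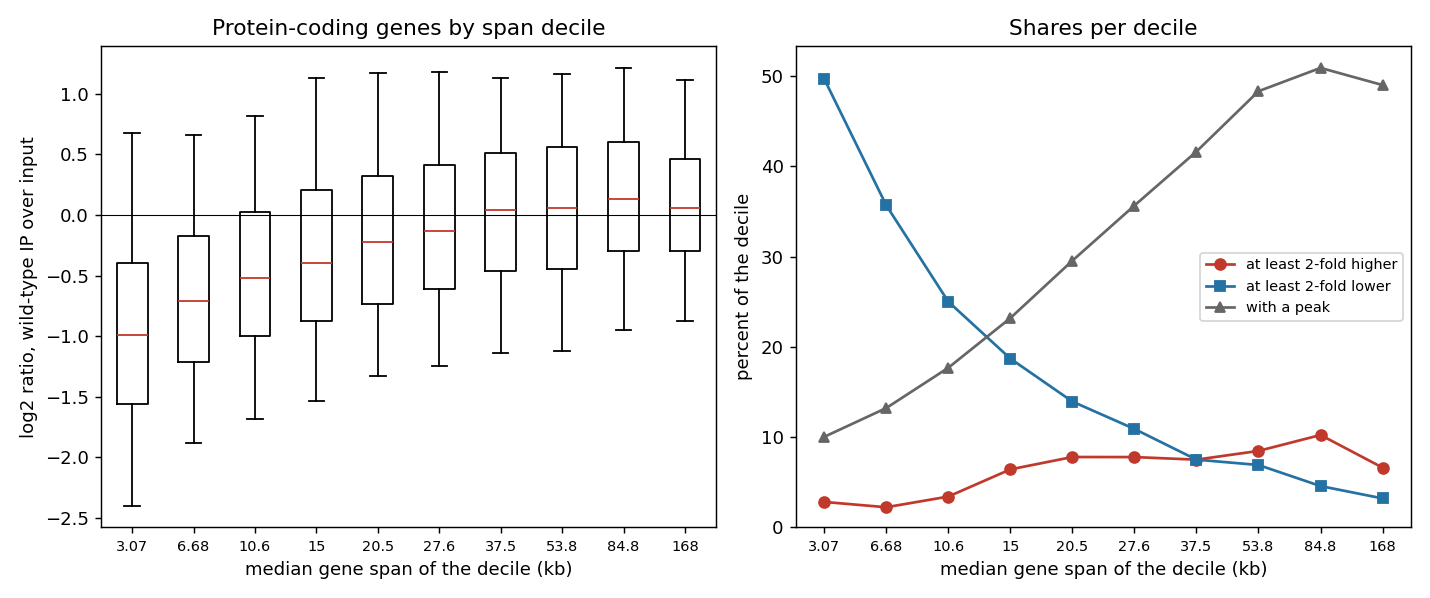
Left, log2 ratio of protein-coding genes by decile of span (box: middle 50% with the median in red; whiskers: 5th to 95th percentile). Right, percent of each decile at least 2-fold higher, at least 2-fold lower, or with a wild-type peak. From the shortest to the longest decile the median goes from −0.99 to 0.05, the share lower from 49.7% to 3.22% and the share with a peak from 10.0% to 49.0%.

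The 72 gene families examined held 2434 of the genes kept, and 19 had a median above 0. Beside the family counts below, 6.48% of all genes kept were at least 2-fold higher and 19.6% lower. Of all 11273 genes kept, 2245 had a log2 ratio from 0 to 0.5, 1348 from 0.5 to 1, 666 from 1 to 2 and 64 above 2. Families of the translation apparatus differed in their medians. Of 79 cytosolic ribosomal protein genes, 34 (43.0%) were at least 2-fold lower and 2 (2.53%) higher, with a median of −0.92. Rps12 stood at 940 in the input and 239 in the IP. Rps16 went the other way, at 256 and 845 (3.30-fold), with 2 peaks, and so did its processed pseudogene Rps16-ps2, at 19.7 and 87.9. The authors' counting could have split reads between such copies. Of 78 mitochondrial ribosomal protein genes 33 (42.3%) were lower and 1, Mrps22 (13.6 and 37.9), was higher. Initiation factors and their regulators (50 genes) had a median of −0.10, with 3 (6%) higher and 7 (14%) lower. They ranged from Eif4ebp1, which restrains cap-dependent initiation, at 35.7 and 12.8, to Eif5a2 at 1.26 and 4.25. The paralogue Eif5a stood at 389 and 176. Elongation and release factors (12 genes) had 0.15, with Eef1a1 at 1652 in the input and 2278 in the IP. Cytosolic and mitochondrial tRNA synthetase genes (37) had −0.02, with 2 (5.41%) higher and 3 (8.11%) lower.

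RNA-binding protein families had medians on both sides of 0. The 24 hnRNP genes had a median of 0.25, 2 (8.33%) were at least 2-fold higher and 0 lower, and 19 held a peak. Hnrnpa2b1 stood at 324 and 499 and Taf15 at 49.1 and 120. The 24 Sm and LSm genes, which encode the core of spliceosomal snRNPs, had −0.93, with 11 (45.8%) lower and 3 (12.5%) higher. Snrpf stood at 59.4 and 14.3, and Snrpa1 at 33.5 and 81.2. SR protein and SF3 genes (26) had −0.04, with 18 carrying a peak, and Srsf3 was 2.41-fold higher. The 47 DEAD and DEAH box helicase genes had −0.08, led by Dhx15 at 60.7 and 146. Deadenylation, decapping and exosome genes (39) had 0.04, with 5 higher and 5 lower (12.8% each). Of 16 genes of the Argonaute, TNRC6, Dicer and let-7 machinery 1, Ago2, was higher by 2.04-fold with an IP level of 81.8. In the mutant table Ago2 was 2.88-fold higher. The Dicer partner gene Tarbp2 was the 1 at least 2-fold lower, at 12.2 and 6.03. Drosha stood at 47.4 and 50.0. Lin28b itself stood at 13.8 in the input and 8.99 in the IP and held no peak.

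Proteostasis families held single genes that stood apart from their complex. Of 6 prefoldin subunit genes 5 were at least 2-fold lower, from Pfdn4 at 22.6 and 10.3 to Pfdn5, which was 4.43-fold lower, and Vbp1 alone was higher, at 14.5 and 155. The 8 CCT chaperonin genes, which encode the ring that receives substrates from prefoldin, had a median of 0.26, and 7 of them were above 0. Cct8 stood at 75.7 and 206 and Cct4 at 102 and 96.1. Proteasome subunit and assembly factor genes (45) had −0.23, with Psma3 at 37.7 and 104 and Psmb6 at 129 and 43.7. Of 31 ubiquitin-conjugating enzyme genes 7 (22.6%) were higher and 2 (6.45%) lower, with a median of −0.20, against 6.48% and 19.6% of all genes kept. The 52 USP and OTU deubiquitinase genes had 7 higher (13.5%) and 2 lower (3.85%), with a median of 0.06. The 22 genes of the translocon, signal recognition particle and signal peptidase had 3 (13.6%) higher and 0 lower. Among the higher were Sec11c at 45.1 and 141 and Ssr3 at 125 and 276.

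Nuclear families of energy metabolism differed from each other. Of 80 oxidative phosphorylation genes 35 (43.8%) were at least 2-fold lower and 0 higher, with a median of −0.88. Cox8a stood at 282 and 87.5, and the highest, Atp5pb, at 113 and 181. Of 18 glycolytic genes 5 (27.8%) were lower, against 19.6% of all genes kept, and 1, Ldha, was higher, at 498 in the input and 1023 in the IP with 6 peaks. Gapdh stood at 820 and 417. Among 28 glutathione and redox genes 8 (28.6%) were lower and 0 higher, with a median of −0.52, or −0.06 relative to genes of like span. The 35 SLC25 carrier genes had a median of −0.14, above that of all genes, and 5 (14.3%) were higher and 9 (25.7%) lower, with the ADP/ATP carrier gene Slc25a5 at 213 and 450 and Slc25a39 at 139 and 33.3.

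The 13 mRNAs encoded by mitochondrial DNA differed from these. Their median was 0.66, the second highest family median, 12 of 13 had a ratio above 0 and 2 were at least 2-fold higher. mt-Co1, a subunit of complex IV, stood at 2189 in the input and 4294 in the IP, and mt-Nd1, of complex I, at 1298 and 2053. mt-Co2 was the one below 0, at 85.7 and 59.2, and mt-Atp8 the highest, at 13.6 and 38.6. In the mutant table the same 13 had a median of −2.04, with mt-Co1 at 2610 in the input and 1057 in the IP. There the shortest span decile of protein-coding genes had a median of −1.86 and the nuclear oxidative phosphorylation genes −2.71. The level of mt-Co1 rests on many reads, 62870 of 150 bases in the input and 136994 in the IP. The 2 genes past 2-fold had fewer, mt-Co3 with 411 and 1063 and mt-Atp8 with 51.6 and 163. Unprocessed pseudogenes on chromosome 1 gave like values, with Gm28437, 0.783 kb long, at 33.6 and 92.4 and mt-Co3, 0.784 kb long, at 28.2 and 65.6. Whether reads were shared between them was not tested.

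Chromatin, cytoskeletal and matrix families ranged widely. Histone genes were the lowest family, with a median of −1.89 over 61 genes and 50 (82.0%) at least 2-fold lower. H2ac18, the 1 histone gene counted as higher, had an input level of 0.00175 and has a near-identical copy, so no fold is given. S100 calcium-binding protein genes (10) had −1.58, from S100a1 at 102 and 14.2 to S100a4 at 214 and 185. Keratin genes (7) had −0.87 with none past 2-fold, and Krt8 stood at 601 and 310. Laminin genes (6), with a median span of 64.1 kb, had −0.68 against 0.19 in the mutant table, and Lama5 stood at 47.5 and 22.4. Collagen genes (8) had −0.31 against 0.35, with Col4a2 at 86.2 and 43.6. The 11 cadherin and claudin genes had 0.26, and Cdh1 stood at 219 and 262. Of 13 integrin genes Itga6 was highest at 77.9 and 134.

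The highest family median belonged to the PI3K-like kinases, large kinases of DNA damage signalling, RNA surveillance and growth control, at 1.18 over 6 genes. Atr stood at 4.33 in the input and 11.2 in the IP, Prkdc at 4.65 and 11.5, Atm at 6.15 and 14.7 and Smg1, which acts in nonsense-mediated decay, at 20.6 and 44.5. Trrap, whose kinase domain is inactive, stood at 33.7 and 50.4, and Mtor at 10.8 and 11.4. All 6 held a peak, from 1 in Mtor to 37 in Smg1. Their median in the mutant table was higher still, at 2.23. Cohesin, condensin and related SMC complex genes (20) had 0.28, with 3 (15%) higher and 0 lower. Nsmce1, a ubiquitin ligase of the SMC5/6 complex, stood at 16.9 and 93.8. VPS genes (33) had 0.10, with 5 (15.2%) higher and 4 (12.1%) lower, and Vps54 stood at 18.6 and 61.2.

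Comparing a family with genes of like span changed part of this picture. With each ratio taken relative to the median of its own decile of span, ribosomal protein genes came to 0.04 and snoRNA host transcripts to −0.06. Glycolytic genes came to −0.20, mitochondrial ribosomal protein genes to −0.21, nuclear oxidative phosphorylation genes to −0.27 and Sm and LSm genes to −0.44. Histone genes moved from −1.89 to −0.90, prefoldin genes came to −0.89, S100 genes to −0.83 and laminin genes to −0.45. On the same scale the mitochondrial mRNAs had 1.65, PI3K-like kinases 1.09, hnRNP genes 0.68 and CCT genes 0.66. The mitochondrial mRNAs all fall in the shortest span decile, so their 1.65 is relative to its median of −0.99.

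**Figure D3:**
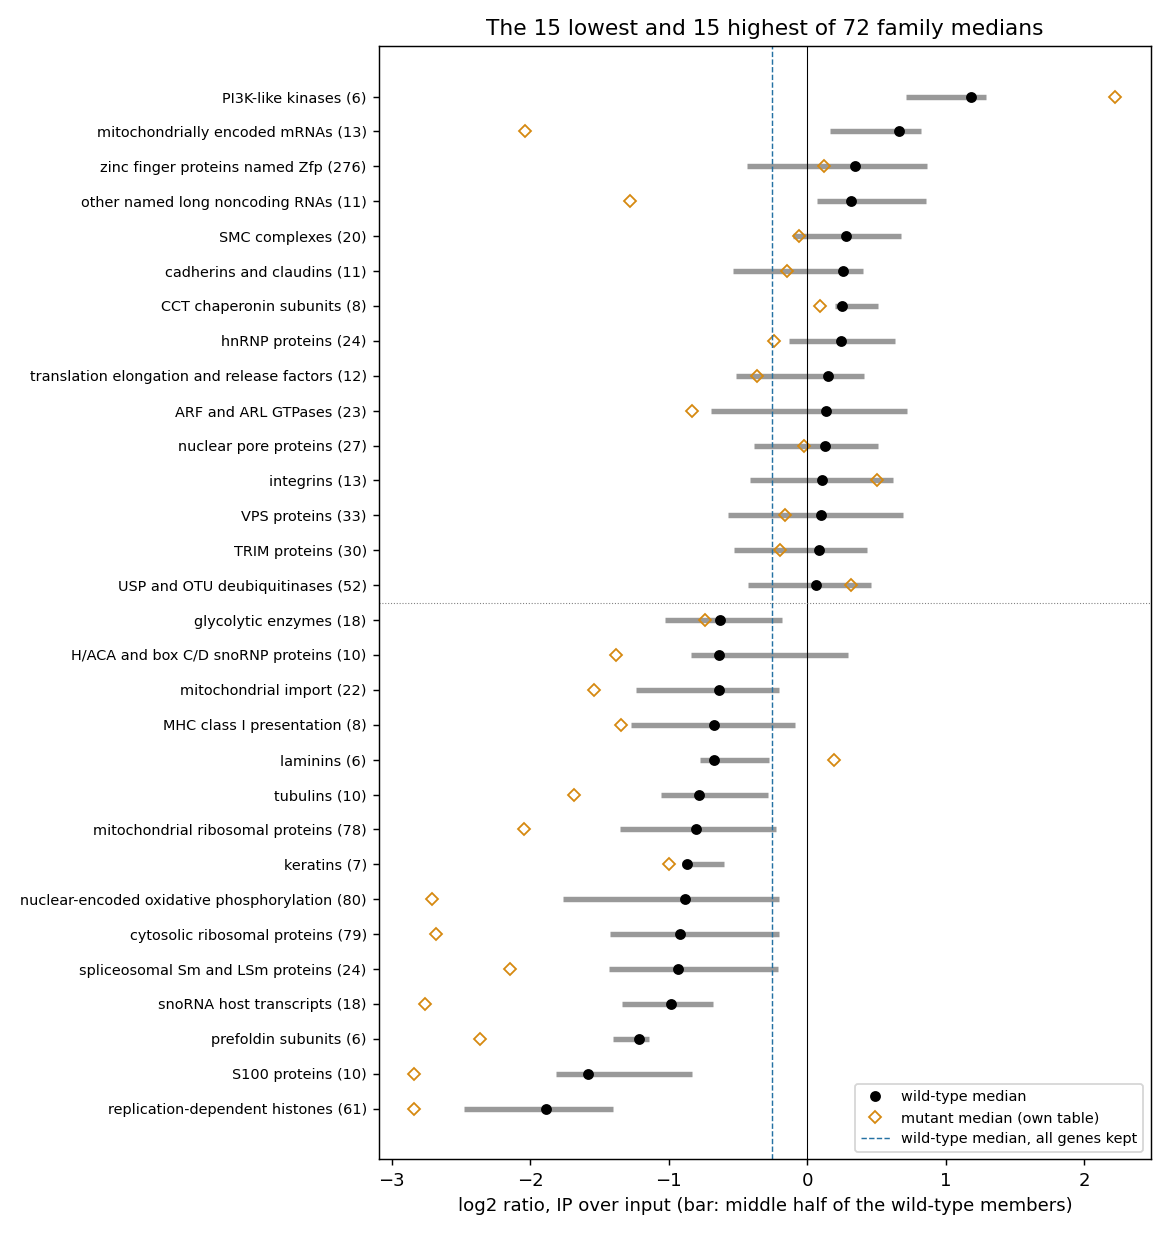
The 15 lowest and 15 highest of the 72 family medians, with the number of genes kept in brackets. Black points are wild-type medians of the log2 ratio, grey bars the middle 50% of members and open diamonds the medians in the separately normalised mutant table. Histone genes lie lowest at −1.89 and PI3K-like kinases highest at 1.18, and mitochondrially encoded mRNAs have 0.66, with −2.04 for the mutant. The shortest span decile of protein-coding genes had a median of −1.86 in the mutant table.

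Zinc finger genes named Zfp, most of which encode DNA-binding repressors with C2H2 fingers, formed the largest family above 0. Of 276 kept, 56 were at least 2-fold higher and 36 lower, the median was 0.34 and 167 had a ratio above 0. Many lie in tandem clusters, and the ratio differed from cluster to cluster. Clusters were defined by position alone, as at least 5 kept Zfp genes with gaps of at most 1 Mb, and 12 were found. In the cluster from Zfp160 to Zfp13 on chromosome 17 (chr17:21008903-23599487), 13 of 20 genes were at least 2-fold higher, with a median of 1.38, and Zfp758 stood at 1.27 in the input and 7.14 in the IP. From Zfp712 to Zfp273 on chromosome 13 (chr13:67038596-67827002), 10 of 15 were higher, with a median of 1.16, and Zfp595 stood at 0.777 and 2.83. From Zfp60 to Zfp36 on chromosome 7, 6 of 8 were higher, with Zfp626 at 1.61 and 3.90. The lowest there, Zfp36, encodes a CCCH finger protein that promotes mRNA decay, and stood at 3.78 and 2.67. In the mutant table the medians of these clusters were 0.36, 1.01 and 1.07 in the same order. All 276 Zfp genes had a median of 0.13 there, against −0.53 over all genes.

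Of the 12 clusters, 4 had medians below the −0.26 of all genes. From Zfp553 to Zfp646 on chromosome 7 the median was −1.10 over 9 genes, with 5 at least 2-fold lower, and the median span was 5.12 kb against 23.5 kb in the chromosome 17 cluster. Outside clusters 158 Zfp genes had a median of 0.10, with 22 (13.9%) higher and 23 (14.6%) lower. Neighbours that are not Zfp genes differed between clusters. In the chromosome 7 cluster from Zfp60 to Zfp36, 7 other genes had a median of −0.88, with the elongation factor gene Supt5 at 40.5 and 18.9 and Rps16 the 1 past 2-fold higher. In the cluster ending at Zfp13, all 6 other genes were at least 2-fold higher, and these were predicted genes and pseudogenes such as Gm10509, at 0.835 and 3.37. The neighbours on chromosome 13 included Rsl1, a zinc finger repressor gene, at 1.40 and 11.4. Zfp levels were low, with a median input of 2.61 in clusters, and cluster members are close paralogues among which the authors' counting could have split reads.

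**Figure D4:**
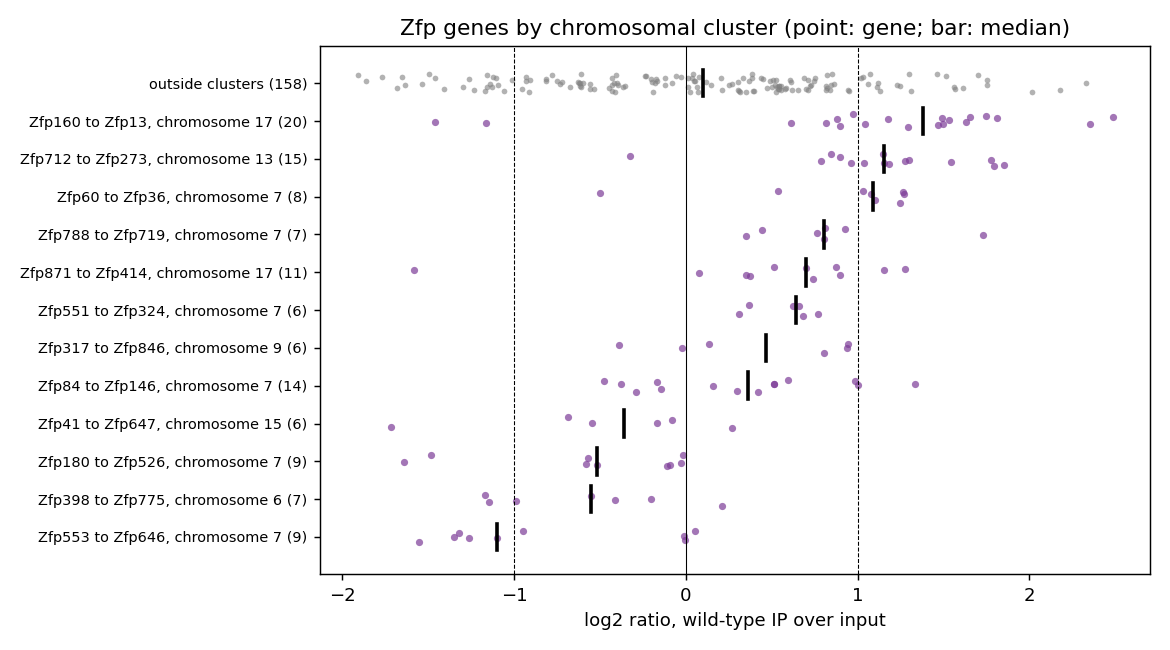
Log2 ratio of each kept Zfp gene in 12 clusters and outside them, with black bars for medians and dashed lines at 2-fold. The cluster from Zfp160 to Zfp13 has the highest median, 1.38, and the cluster from Zfp553 to Zfp646 the lowest, −1.10.

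Chromosomes differed in their share of high genes. On the X chromosome 55 of 333 genes (16.5%) were at least 2-fold higher and 35 (10.5%) lower, against 6.48% and 19.6% of all genes kept. The X median was 0.15. The X median span of 23.2 kb was near that of all genes, 21.8 kb, and relative to genes of like span the X median was 0.46. The X genes with the highest IP levels among these were Slc25a5, the ubiquitin ligase gene Rnf128 at 86.1 and 262, Vbp1 and the actin-bundling gene Pls3 at 37.5 and 130. They were followed by the lysosomal membrane gene Lamp2 at 50.4 and 110 and Tspan7 at 45.0 and 107. Among the other nuclear chromosomes the highest share was 11.1%, on chromosome 13. Chromosomes 7, 17, 11 and 19 had medians of −0.58, −0.54, −0.46 and −0.46, and their median spans were 16.3, 15.4, 16.3 and 14.7 kb. In the mutant table the X median was −0.45 against −0.53 over all genes.

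Gene classes differed in their medians. The 327 processed pseudogenes had a median of −1.10, with 175 (53.5%) lower and 23 (7.03%) higher, and a median span of 0.552 kb. Antisense genes (108) had −0.87 with 50 (46.3%) lower, and the 145 lincRNAs had −0.37 with 15 higher (10.3%) and 41 lower (28.3%). After 6720427I07Rik the highest lincRNAs at a level of 5 or above were Gm46430, 3.66-fold higher, and E430024I08Rik, at 2.58 and 8.01. Malat1, the most abundant in the input, stood at 332 and 309, and Neat1, the scaffold of paraspeckles, at 27.6 and 18.7. Oip5os1 stood at 11.7 and 26.6, and the long noncoding RNA Tug1, which the files class as protein-coding, at 31.4 and 66.9. The 224 genes without symbol or class in the files had −0.55, with 15 (6.70%) higher and 73 (32.6%) lower. By their deposited descriptions the highest was hydroxyprostaglandin dehydrogenase 15 (NAD), at 16.2 and 63.9, and a Wnt ligand, wingless-type MMTV integration site family, member 10A, stood at 24.5 and 5.22.

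The authors' wild-type peak list held 11912 sites, of which 11599 had their summit in a listed gene on the same strand and 98.5% of those lay in protein-coding genes. Their median width was 256 bases and their median fold 3.77, both as the authors' caller gave them. Peaks fell in 3358 of the genes kept (29.8%). Genes with no peak had a median log2 ratio of −0.58. With 1, 2, 3 to 5, 6 to 10 and over 10 peaks the medians were 0.26, 0.47, 0.67, 0.88 and 1.07. Of the 730 genes at least 2-fold higher 635 held a peak (87.0%, exact 95% interval 84.3 to 89.3), and of the 2211 lower genes 10 did (0.452%, 0.217 to 0.830). Peaks and ratios come from the same libraries, and the intervals cover counting error only. The 95 higher genes without a peak were low, with a median IP level of 1.95 against 23.8 for those with one.

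The genes with most peaks were long and their ratios moderate. Vps13a, which encodes a lipid transfer protein, held 51 peaks and stood at 17.4 in the input and 53.2 in the IP. The apoptosis inhibitor gene Birc6 held 49 (31.3 and 64.5), the cytoskeletal linker gene Macf1 44 (56.8 and 96.6), the deubiquitinase genes Usp34 41 (25.5 and 65.0) and Usp9x 38 (41.7 and 96.5), and Smg1 and 4932438A13Rik 37 each. The mutant list held more peaks in each of these 7 genes, from 42 in Usp9x to 85 in Macf1. The widest peak, 7375 bases, lay in Ago2 near the 3′ end of its span, with a modest fold of 2.99. Wide peaks also lay in the heterochromatin protein gene Cbx5 (7100 bases), in Ahnak (7063 bases), in Nfib (6723 bases, fold 7.59) and in Otud4 (5020 bases).

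Summits gathered towards the 3′ end of the span. Of 11599 summits 4326 (37.3%, exact 95% interval 36.4 to 38.2) lay in its last decile and 239 (2.06%) in its first. The intervals here treat summits as independent, although a gene held up to 51 peaks. With the strongest peak per gene alone, 43.6% of summits lay in the last decile. The last decile held 31.4% of summits where a protein-coding gene spanned at most 20 kb, 38.9% from 20 to 60 kb and 37.9% above 60 kb. Strong peaks were placed differently from weak ones. In the last decile lay 52.4% (49.5 to 55.3) of summits with a fold of 1 to 2, 41.5% of those from 2 to 5, 27.3% from 5 to 10, 15.9% from 10 to 20, and 5 of 74, or 6.76% (2.23 to 15.1), at 20 or above. The share of gene peaks that overlapped a mutant peak was 48.3%, 50.2%, 48.0%, 56.9% and 78.4% in the same order. Exon positions and input coverage along the span were not used, and what part they have in the summit positions was not tested.

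**Figure D5:**
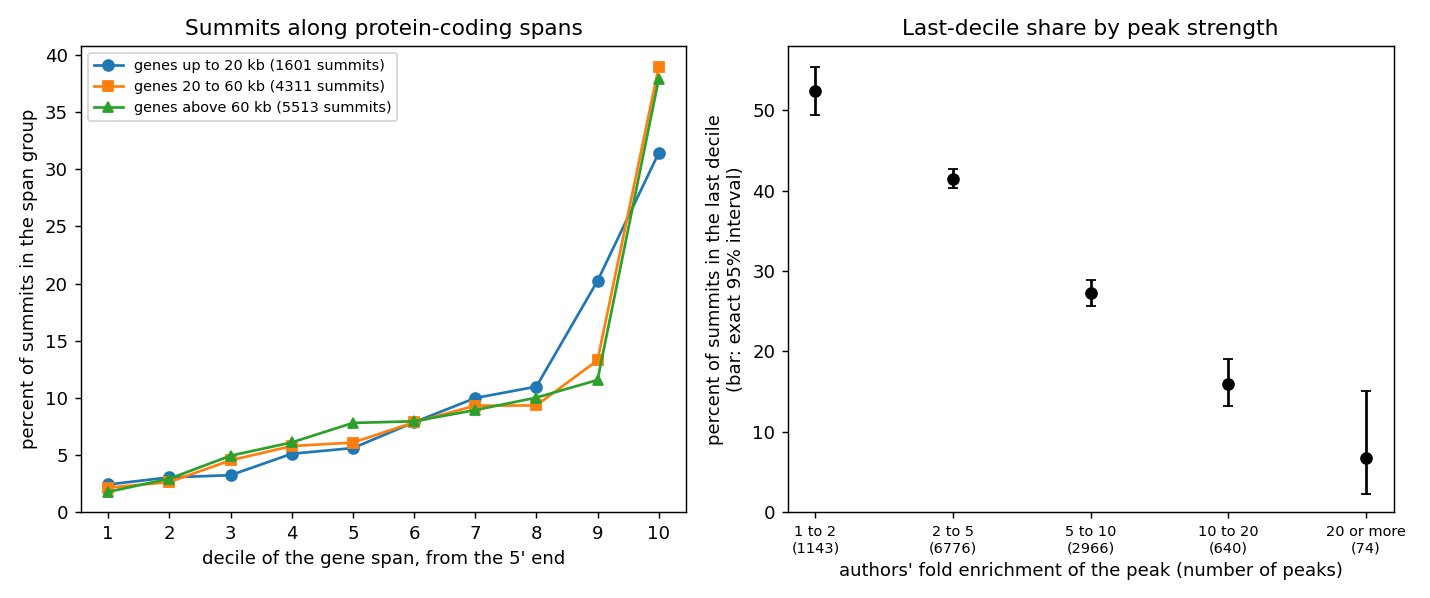
Left, percent of summits in each decile of the gene span, from the 5′ to the 3′ end, for protein-coding genes in 3 span groups. Right, percent of summits in the last decile by the authors' fold of the peak, with exact 95% intervals that treat summits as independent. The last decile holds 31.4% to 38.9% of summits on the left, and on the right its share falls from 52.4% to 6.76%.

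The strongest peaks in genes did not always mark high genes. The highest fold, 270, lay in Cmss1 at chr16:57391113-57391775 on the minus strand, and a peak of fold 69.7 lay in Filip1l at chr16:57391329-57391669 on the plus strand, within the bases of the first. Both sites also held a mutant peak. The genes themselves had ratios of −1.12 and −0.92. In Hpf1 a peak of fold 48.6 near the middle of the span, chr8:60899917-60900225, had no mutant peak, and the gene was 4.63-fold higher. A fold of 50.8 was found in Hmga2. In Sos1, an exchange factor for RAS, the fold was 44.9, in Tasor 40.5, in the endosomal gene Tm9sf3 39.0, in Vps54 36.9, in the lipid kinase gene Pik3c2a 35.5 and in the clathrin assembly gene Picalm 34.7. In Ap1s2, a clathrin adaptor gene on the X chromosome, a peak of fold 33.7 and 2650 bases had no mutant counterpart, and the gene stood at 3.75 in the input and 19.8 in the IP. In Acer3, a ceramidase gene, a peak of fold 33.5 lay in a gene with a ratio of −0.86. The peaks named here in Hmga2, Sos1, Tasor, Tm9sf3, Vps54, Pik3c2a, Picalm and Acer3 all overlapped a mutant peak.

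Of the 313 peaks outside listed genes 138 lay opposite a listed gene, 97 in another RefSeq gene span and 78 in neither. The strongest, with a fold of 2217 at chr17:39843313-39848713, lay in the RefSeq span of Rn18s-rs5, a ribosomal RNA-related gene, and a mutant peak overlapped it. Of the 313, 113 overlapped a mutant peak.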

How the data were processed

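The authors deposited 1 table per Lin28b form with FPKM values of IP and input; that the unit is FPKM was read from the values, since no header names it. The log2 ratio of IP over input and a q-value per gene were deposited by the authors, with the test behind the q-value not given in the sources used here. Peaks came with a fold and a −log10 q-value, as deposited by the authors, called on each IP. The submitters' processing notes name HISAT2 2.1.0, MACS2 2.2.7.1, bedtools and HOMER 4.11.1.

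Ratios were recomputed as log2((IP + 0.01)/(input + 0.01)) for genes with the higher library at 1 or above, and differed from the authors' deposited log2 values by at most 1.57e-09. Symbols and classes were joined by gene ID from the mutant table. They covered 11049 of the genes kept, and 224 had none. Families were defined by symbol patterns, and 28 false matches were dropped after their values were seen. A peak was given to the gene whose span held its summit on the same strand. Members, families and lists were chosen with earlier results of these data known. Genes were named by rank overall (the 30 highest and 20 lowest), by extremes and highest input in each family, class and span decile, and by strongest or most numerous peaks. Others, such as the let-7 hosts, the Zfp cluster neighbours and the X-linked genes, were chosen after their values were seen. With 1 library per group no test was run. Python 3.11.15, pandas 2.3.3, NumPy 2.4.6, SciPy 1.17.1 and matplotlib 3.10.9 were used, and the ratio and the assignment of peaks to genes were tested on simulated data.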

Additional observations from a re-analysis of the deposited data

How the results depend on the processing

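After centring on the median, all genes had a median of 0, with 1301 genes higher and 1446 lower, and the span extremes had −0.74 (shortest decile) and 0.31 (longest). With no level filter the values were −0.29, 1268, 3433, −0.96 and 0.059 in the same order. With a level of 5 or above the medians were −0.21, −1.04 and 0.078, and with a pseudocount of 1 they were −0.22 over all genes and −0.82 in the shortest decile. A 3-fold limit left 152 higher and 778 lower genes. Among named protein-coding genes, without families of near-identical copies (histone and ribosomal protein genes), the span extremes had −0.94 and 0.059. Among peaks with a fold of 5 or above, 13.6% of genes held one and 24.9% of summits lay in the last decile. With a −log10 q-value of 5 or above these were 27.1% and 35.5%, and with the strongest peak per gene 43.6%. Of 72 family medians, 25 changed sign on centring, 9 at a level of 5 or above, 0 with a pseudocount of 1, and 27 relative to genes of like span, an alternative chosen after seeing the data. Apart from these family medians, no result listed here changed direction. No paired analysis was possible because each group holds 1 library. Depth limits genes near a level of 1, where ratios rest on few reads.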
